A study of Mus musculus with 8 samples.

Results

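The 10 genes described here, Tyr, Tyrp1, Dct, Pmel, Mlana, Mitf, Slc45a2, Oca2, Slc24a5 and Gpr143, act in the synthesis of melanin. They were chosen by symbol from a table of 56465 features, of which 25972 carry a gene symbol. All 10 symbols were found. Mitf stood on 3 rows, of which the one with the highest mean was taken, and the other 2 rows were at 0 in all 8 libraries.

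The samples were 8 mouse retinas, 4 from mice that express human transferrin (TG; replicates 2, 5, 6 and 8) and 4 from wild-type mice (WT; replicates 3, 4, 5 and 7). Every mouse carries the strain label C57Bl/6J, a pigmented strain. Every retina had been detached by injecting 10 µl of sodium hyaluronate beneath it and was taken 4 days later, so no attached retina enters any comparison. The TG group held 2 males and 2 females, with 2 right and 2 left eyes, and the WT group held 3 males and 1 female, with 3 right eyes and 1 left. The sources used here give neither the promoter that drives human transferrin, nor the copy state of the transgene, nor the age of the mice. Polyadenylated RNA was sequenced, and libraries held 61535690 to 70540242 counted reads in TG and 68433927 to 75866423 in WT. Retinal markers were present in every library, and 6 cone and bipolar cell markers summed to 48040 to 59024 normalized reads in TG and 51539 to 58006 in WT. Other retinal lists were less even. The sum of 5 Mueller glia markers was 23720 to 76300 in TG and 16328 to 69372 in WT. For 6 markers of inner retinal neurons it was 35602 to 65751 and 30853 to 50063. For 6 rod markers it was 2.71e+06 to 4.12e+06 and 3.06e+06 to 3.51e+06. A normalized read is a read count divided by 1 size factor per library. Whether every retina is from a mouse of its own is not stated in the labels, and the p-values cover only the variation among these 8 samples.

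Melanin is made in melanosomes, organelles related to lysosomes. In the eye they lie in the pigment epithelium behind the retina, in the pigmented epithelia of the ciliary body and iris, and in melanocytes of the choroid and iris. Neural retina makes no melanin. The pigment epithelium and the choroid are left behind, as far as possible, when a retina is dissected. Mitf encodes the transcription factor that drives many pigment genes. Tyr, Tyrp1 and Dct encode the enzymes of the tyrosinase family that turn tyrosine into melanin. Pmel builds the fibrils on which melanin is laid down, and Mlana supports the maturation of Pmel. Oca2, Slc45a2 and Slc24a5 encode transporters that set the ion balance and pH of melanosomes and related compartments, and Gpr143 encodes a receptor of the melanosome membrane that controls melanosome number and size.

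The promoters of 4 of these genes are shown because MITF is known to bind the E-box CATGTG and its longer form TCATGTG, the core of the M-box, and because these 4 windows hold the longer form. Each sequence is the 250 bases upstream of the annotated start, 5′ to 3′ on the gene's own strand, from RefSeq on GRCm38.p6. Capitals mark TCATGTG on either strand, where it reads CACATGA on the opposite one. The Tyr window is chr7:87493513-87493762 on the minus strand, the Tyrp1 window chr4:80833963-80834212 on the plus strand, the Dct window chr14:118052247-118052496 on the minus strand and the Slc24a5 window chr2:125067877-125068126 on the plus strand.
Tyr: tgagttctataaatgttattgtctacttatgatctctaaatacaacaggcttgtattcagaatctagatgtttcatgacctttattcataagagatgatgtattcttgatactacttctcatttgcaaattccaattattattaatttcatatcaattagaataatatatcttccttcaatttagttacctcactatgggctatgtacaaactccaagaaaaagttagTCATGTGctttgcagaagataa
Tyrp1: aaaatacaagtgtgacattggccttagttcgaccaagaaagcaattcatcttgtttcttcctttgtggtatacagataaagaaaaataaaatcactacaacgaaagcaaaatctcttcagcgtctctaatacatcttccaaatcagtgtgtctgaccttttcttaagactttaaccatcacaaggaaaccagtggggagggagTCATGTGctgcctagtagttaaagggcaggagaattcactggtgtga
Dct: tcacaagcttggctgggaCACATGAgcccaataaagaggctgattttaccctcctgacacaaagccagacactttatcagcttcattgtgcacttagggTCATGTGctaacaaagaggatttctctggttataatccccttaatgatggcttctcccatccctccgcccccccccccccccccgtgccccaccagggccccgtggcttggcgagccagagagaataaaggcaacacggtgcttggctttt
Slc24a5: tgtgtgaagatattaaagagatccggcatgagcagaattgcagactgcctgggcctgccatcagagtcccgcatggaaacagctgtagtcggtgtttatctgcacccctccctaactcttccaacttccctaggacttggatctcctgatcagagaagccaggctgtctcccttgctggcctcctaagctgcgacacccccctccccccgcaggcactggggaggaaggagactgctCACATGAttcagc

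The motif began 22 bases before the start of Tyr and 47 bases before that of Tyrp1, on the gene strand in both. Dct held it on the gene strand from 151 bases before its start and on the opposite strand from 232 bases before, and Slc24a5 held it on the opposite strand from 13 bases before its start. Of the 10 genes, 6 had a promoter in the RefSeq table, and TCATGTG on either strand was in 4 of the 6, against 3.72% of all 27025 genes with a promoter. The shorter CATGTG, which lies within TCATGTG, was in 5 of the 6, Oca2 being the other, against 13.9% of all genes. CACGTG, the other E-box searched, was in 0 of the 6, against 6.86% of all genes. TAATCC, a motif known to be bound by OTX2, was in Dct and Mitf, against 7.21% of all genes. A match describes these letters only and is not a measured binding site.

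None of the 10 genes differed between TG and WT retinas at an adjusted p under 0.05. The test was limma on log2(normalized reads + 1), adjusted by the Benjamini-Hochberg method over the 19798 features that averaged 10 normalized reads or more. All 10 genes passed that minimum, 0 were higher and 0 lower at the threshold, and over all features tested 0.0101% were called. On the recovered reads, edgeR called 0 of the 10, with 0.0101% of all features called, and DESeq2 called 0 of the 10, with 0.0808% called. At an unadjusted p under 0.05 there was 1 of the 10 with limma, Mitf, and 0 with edgeR and 0 with DESeq2, where 4.64% of all features were past that level with limma. The groups overlapped for all 10, and 2.53% of all features had groups that did not overlap. The mean was lower in TG for all 10 genes and the median was lower in TG for 7. On the log2 scale 4 of the 10 fold changes were positive and 6 negative with limma, while all 10 were negative with edgeR and with DESeq2. With limma their median was -0.27, against -0.02 over all features tested, and the median over the 10 was -0.62 with edgeR, -0.65 with DESeq2 and -0.55 with eye as a term. The limma median over the 10 lay above 0 without TG 8 (0.21), WT 3 (0.14) or WT 7 (0.022). In bulk tissue, fewer pigmented cells and less RNA per pigmented cell cannot be told apart.

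The summed level of the 10 genes varied more between libraries of 1 group than between the group means. It was 2542, 1737, 4035 and 905.3 normalized reads in TG 2, 5, 6 and 8, and 6258, 931.7, 1117 and 4922 in WT 3, 4, 5 and 7. WT 3, WT 7 and TG 6 were thus the highest libraries, and TG 8, WT 4 and WT 5 the lowest. Dct was the largest part of the sum in every library. Ranking by the mean of centred log2 values, in which each gene counts alike, gave the same order. WT 3 was among the highest 3 libraries for all 10 genes, and TG 8 was among the lowest 3 for all 10. The 3 highest libraries include both sexes, both eyes and both genotypes: WT 3 is a male right eye, and WT 7 and TG 6 are female left eyes. In the order of that sum the left eyes WT 7, TG 6 and TG 2 ranked 2, 3 and 4. The right eyes WT 3, TG 5, WT 5, WT 4 and TG 8 ranked 1, 5, 6, 7 and 8. The females WT 7, TG 6 and TG 8 ranked 2, 3 and 8. The part of eye or sex in this order was not tested.

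**Figure D1:**
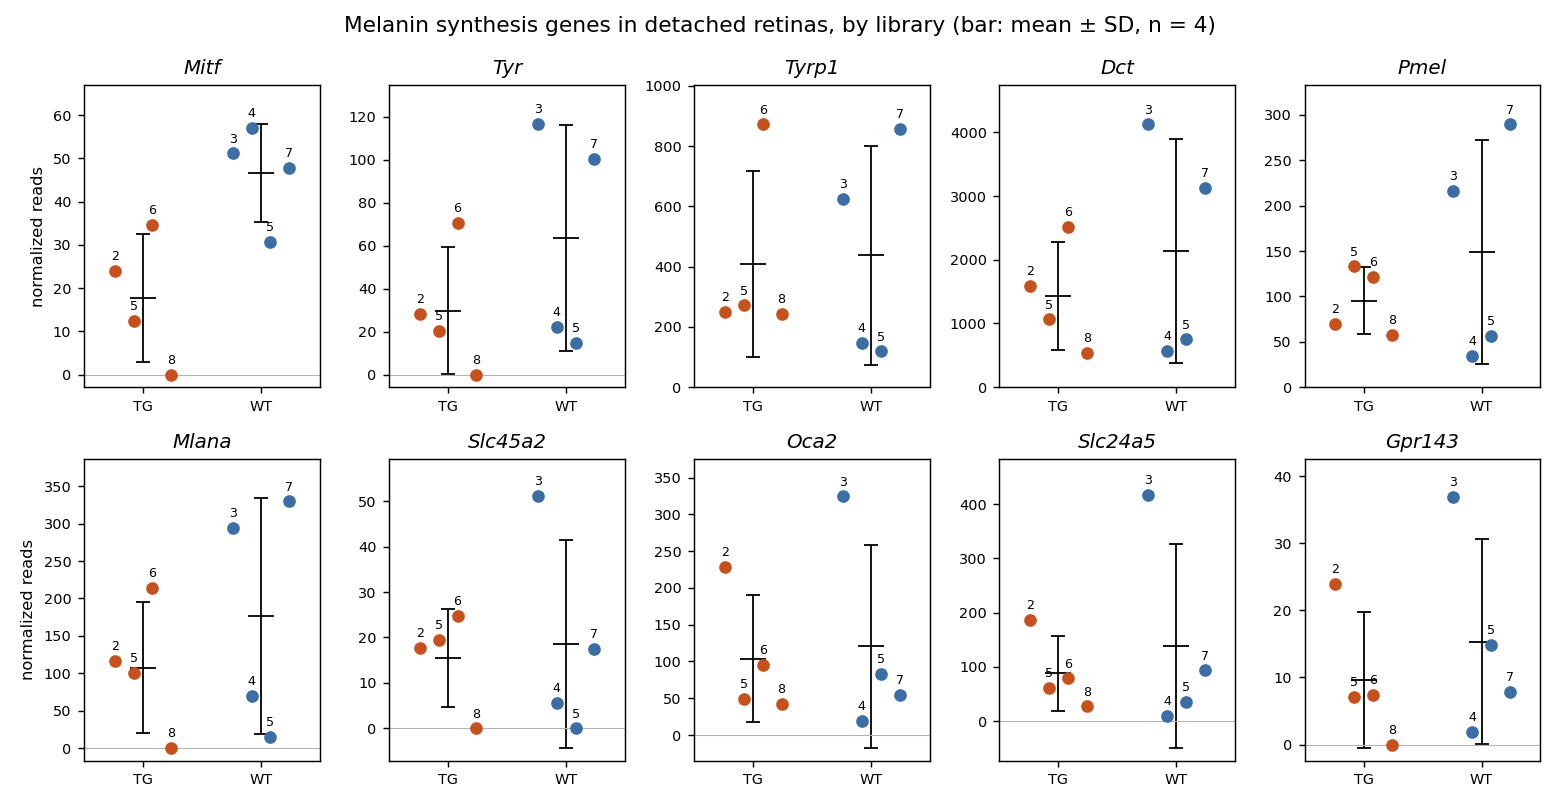
Normalized reads of each melanin synthesis gene (vertical axes, linear, own scale for each gene) in the 4 TG libraries and the 4 WT libraries, with replicate numbers beside the points and bars for the mean ± SD (n = 4 each). For 6 of the 10 genes WT 3 is the highest point, and TG 8 is at 0 for Tyr, Mlana, Mitf, Slc45a2 and Gpr143.

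Mitf, the regulator (chr6:97807057-98021358 in the deposited mm10 coordinates), was one of the lowest of the 10 genes in reads. It had 23.9, 12.3, 34.6 and 0 normalized reads in TG 2, 5, 6 and 8, against 51.2, 57.1, 30.6 and 47.8 in WT 3, 4, 5 and 7. TG 6 lay above WT 5 and the other TG libraries lay below every WT library. The means were 17.7 ± 14.9 in TG and 46.7 ± 11.4 in WT (SD, n = 4 each), and limma put the log2 fold change at -2.16 with a standard error (SE) of 0.99 and a 95% interval from -4.28 to -0.03 (adjusted p = 0.92). Without TG 8 the log2 fold change was -1.03, and under edgeR it was -1.40. Mitf was the only one of the 10 whose highest library was WT 4, a library with low levels of most of the others.

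Tyr (chr7:87424771-87493512), which encodes the rate-limiting enzyme of melanin synthesis, was also low. It had 28.4, 20.3, 70.4 and 0 normalized reads in TG 2, 5, 6 and 8, against 117, 22.1, 14.8 and 100.4 in WT 3, 4, 5 and 7. Limma put its log2 fold change at -1.65 with an SE of 1.16 (adjusted p = 0.92), and -0.37 without TG 8. WT 3, WT 7 and TG 6 stood above the other 5 libraries, which lay at 28.4 or below.

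Tyrp1 (chr4:80834213-80851736), which encodes an enzyme that acts on and stabilises tyrosinase, had 249.98, 271, 872 and 242 normalized reads in TG 2, 5, 6 and 8, against 624, 147, 118 and 858 in WT 3, 4, 5 and 7. Limma put its log2 fold change at 0.15 with an SE of 0.60 (adjusted p = 0.98), and the value was -0.29 without TG 6, -0.21 without WT 4 and -0.31 without WT 5. TG 6 and WT 7 were the highest, at nearly the same level, and the other 3 TG libraries lay close together.

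Dct (chr14:118012792-118052246), which encodes dopachrome tautomerase, had the most reads of the 10. It stood at 1596, 1064, 2517 and 537 normalized reads in TG 2, 5, 6 and 8, against 4128, 564, 749 and 3123 in WT 3, 4, 5 and 7. The means were 1428 ± 845 in TG and 2141 ± 1764 in WT (SD, n = 4 each), and limma put the log2 fold change at -0.31 with an SE of 0.59 (adjusted p = 0.96). The sign turned without WT 3 (0.17), WT 7 (0.03) or TG 8 (0.09). The SD within each group was larger than the difference between the 2 means.

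Per kilobase of exon, Dct was also the highest of the 10, with a mean over the 8 libraries of 303 normalized reads per kilobase. Tyrp1 followed at 149.5 and Mlana at 135, and the ranges over libraries of these genes overlapped widely. Pmel, Slc24a5 and Oca2 had mean levels of 53.3, 48.8 and 28.3 per kilobase. Tyr, Gpr143, Slc45a2 and Mitf had mean levels of 6.56, 6.24, 5.70 and 5.20 per kilobase, and their order among themselves is not resolved by these libraries. The exon lengths came from GENCODE vM21 and may differ from those behind the deposited counts.

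The melanosome matrix genes Pmel (chr10:128706256-128720238) and Mlana (chr19:29697920-29708448) had WT 3 and WT 7 as their highest libraries, as Tyr and Dct did. Pmel had 70.0, 133, 121 and 57.6 normalized reads in TG 2, 5, 6 and 8, against 216, 34.1, 56.0 and 290 in WT 3, 4, 5 and 7. Mlana had 117, 100.4, 214 and 0 in the TG libraries in the same order, against 294, 70.0, 14.8 and 330 in the WT libraries. WT 7 was the highest library for both and WT 3 the next. The 4 TG values of Pmel lay inside the WT range, and limma put the log2 fold change at -0.22 with an SE of 0.61 (adjusted p = 0.97), which became 0.12 without WT 3 and 0.26 without WT 7. For Mlana limma put it at -1.35 with an SE of 1.44 (adjusted p = 0.92) and 0.42 without TG 8. The end of Pmel overlaps the end of Dgka in the deposited coordinates, and the sources used here do not say whether strand was used in counting, so reads at that end cannot be assigned with certainty.

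WT 3 was the highest library and TG 2 the next for Oca2 (chr7:56239771-56536517), Slc24a5 (chr2:125068123-125088677) and the receptor gene Gpr143. Oca2 had 229, 49.3, 95.1 and 41.9 normalized reads in TG 2, 5, 6 and 8, against 324, 19.3, 83.5 and 54.6 in WT 3, 4, 5 and 7. Slc24a5 had 187, 60.8, 79.0 and 27.3 in the TG libraries in the same order, against 417, 10.1, 34.9 and 93.6 in the WT libraries. WT 7, which had the highest or next highest Tyr, Tyrp1, Dct, Pmel and Mlana, was the fifth library for Oca2 and the third for Slc24a5. Limma put the log2 fold change of Oca2 at 0.15 with an SE of 0.75 and that of Slc24a5 at 0.18 with an SE of 0.91 (adjusted p = 0.98 for both). They became -0.33 and -0.28 without TG 2, and -0.47 and -0.65 without WT 4. Slc24a5 overlaps a feature with no symbol (mean 1111 normalized reads) and the end of Myef2 (mean 1331), with the same uncertainty over strand.

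Slc45a2 (chr15:11000720-11029788) and Gpr143 (chrX:152781921-152808646) had the fewest reads of the 10. Slc45a2 had 17.7, 19.4, 24.7 and 0 normalized reads in TG 2, 5, 6 and 8, against 51.2, 5.52, 0 and 17.5 in WT 3, 4, 5 and 7. Gpr143, an X-linked gene, had 23.9, 7.04, 7.41 and 0 in the TG libraries in the same order, against 36.8, 1.84, 14.8 and 7.80 in the WT libraries. Both were highest in WT 3 and at 0 in TG 8, and the next highest library was TG 6 for Slc45a2 and TG 2 for Gpr143. Limma put the log2 fold change of Slc45a2 at 0.16 with an SE of 1.41 (adjusted p = 0.99) and that of Gpr143 at -0.79 with an SE of 1.25 (adjusted p = 0.95). Gpr143 stood at 0.11 without TG 8. Slc45a2 stood at 1.26 without TG 8 and at -0.89 without WT 5. At these depths a value of 0 allows up to 3 reads, which is 2.93 normalized reads in TG 8 and 3.17 in WT 5. This limit treats reads as independent. Most low counts were even, so the limit may be higher.

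TG 8 was at 0 for 5 of the 10 genes and held 537 normalized reads of Dct and 242 of Tyrp1. Among all features whose mean over the other 7 libraries was from 20 to 60, 7.66% were at 0 in TG 8, 7.25% in TG 6 and 1.61% to 4.22% in the other 6 libraries. Mitf and Tyr were in that range, Slc45a2 and Gpr143 were below it, and Mlana was above it, where 0.692% of features with a mean from 60 to 200 were at 0 in TG 8. These shares were computed after the values of TG 8 had been seen. The standard error of the fold change was wider than the median over all features, 0.30, for each of the 10 genes, from 0.59 for Dct to 1.44 for Mlana. The intervals of the fold changes therefore include large differences in either direction for all but Mitf, whose interval ends just below 0.

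**Figure D2:**
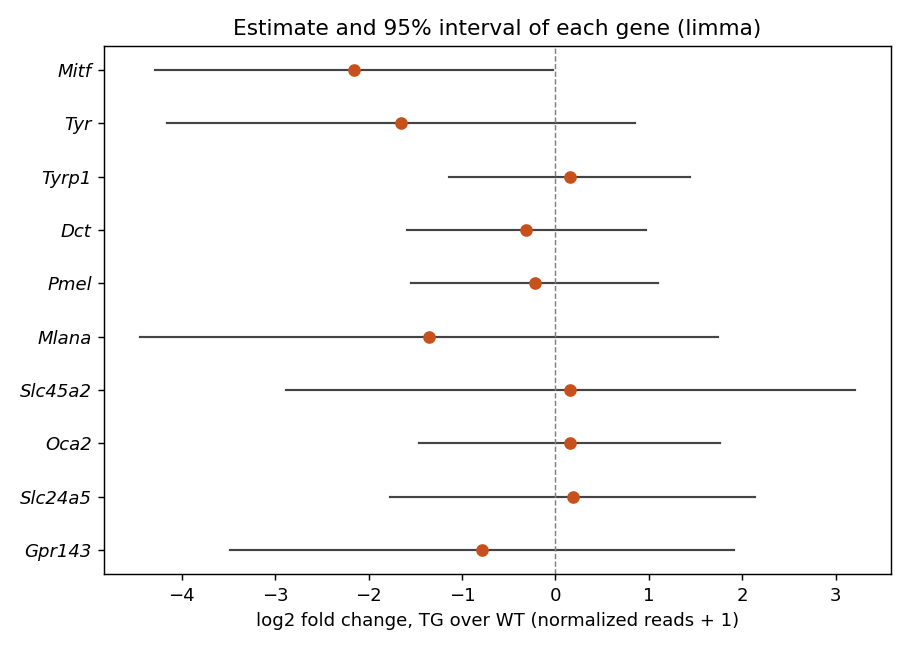
Log2 fold change of each gene, TG over WT, on log2(normalized reads + 1) (points) with its 95% interval from limma (lines), 4 libraries a group. The intervals of 9 of the 10 genes include 0, and that of Mitf ends at -0.03. None passed after adjustment.

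Markers of the pigment epithelium also varied between the libraries. Rpe65, the isomerase of the visual cycle that defines this epithelium, had 2697, 486, 1310 and 184 normalized reads in TG 2, 5, 6 and 8, against 7153, 261, 244 and 617 in WT 3, 4, 5 and 7. WT 3 was the highest and TG 2 the next for Rpe65, for the retinyl ester synthase gene Lrat, for Rgr and Rdh5 of the visual cycle and for the thyroxine carrier gene Ttr. Of the list of 22 pigment epithelium markers, all were measured, 13 had a positive and 9 a negative log2 fold change, 0 passed the test and the median was 0.05. Their summed level was 17151 to 61374 in TG and 14718 to 119986 in WT. Much of that sum came from Ttr (67791 in WT 3) and Krt18 (mean 6696), so it says less of the other listed genes. Best1, a chloride channel gene of this epithelium, went another way, with 13.2 to 53.7 in TG and 29.7 to 82.9 in WT. Other listed markers also departed from the order of Rpe65. Rrh and Cdh1 were highest in TG 8, Cldn19 in TG 6, Itgb8 in TG 2, Krt18 in WT 5 and Sulf1 in WT 7. Trpm3 was highest in WT 3 with WT 7 next. The part of these cells in the levels of the 10 genes was not tested.

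The ratio to Rpe65 differed between libraries for each gene set against it. The ratio of Dct to Rpe65 reads was 0.592, 2.19, 1.92 and 2.91 in TG 2, 5, 6 and 8, and 0.577, 2.16, 3.07 and 5.06 in WT 3, 4, 5 and 7. The lowest ratios were thus in the 2 libraries richest in Rpe65, WT 3 and TG 2, and the highest in WT 7. The ratio to Rpe65 spanned 8.77-fold between libraries for Dct, 15.9-fold for Tyrp1 and 18.1-fold for Pmel, and 7.54-fold for Oca2 and 3.92-fold for Slc24a5, so that of Oca2 was close to that of Dct. Of other markers of the same epithelium, only Lrat and Rgr were set against Rpe65, and their ratios spanned 1.76-fold and 3.17-fold. Best1 did not follow Rpe65 across libraries. It had 29.7 normalized reads in WT 3, the library richest in Rpe65, and 82.9 in WT 4, where Rpe65 was at 261. These ratios were chosen after the values had been seen and are given as a description.

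**Figure D3:**
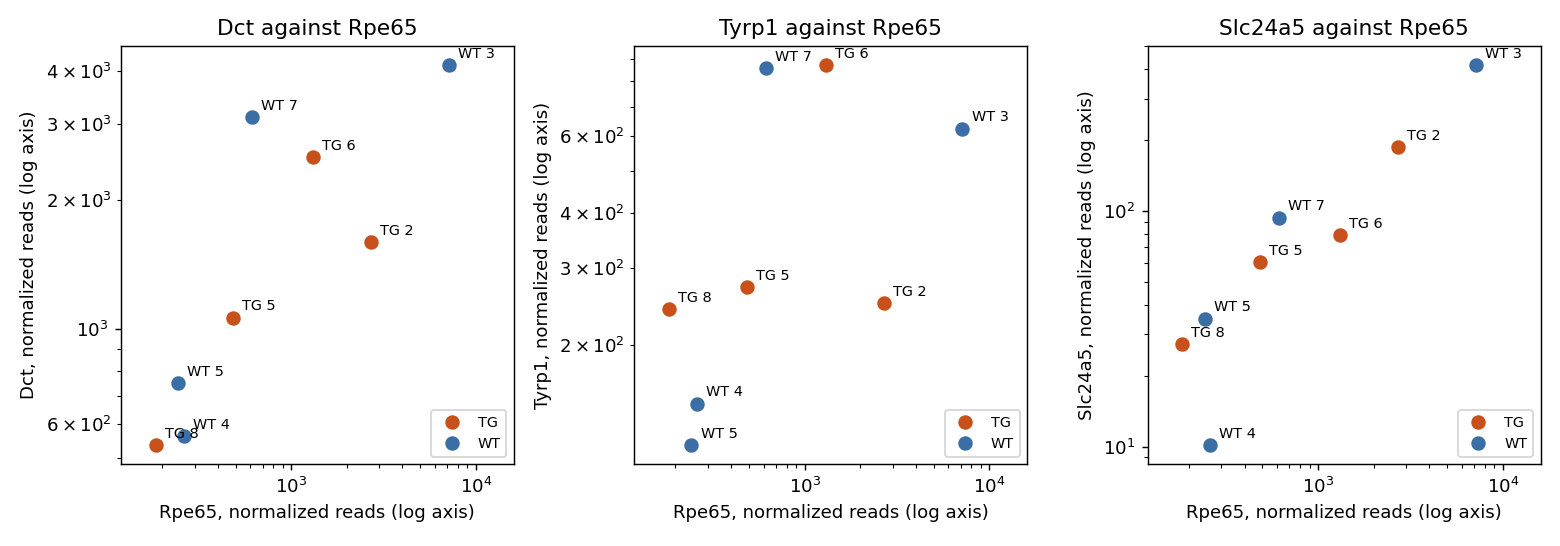
Normalized reads of Dct, Tyrp1 and Slc24a5 (vertical axes, log scale) against Rpe65 (horizontal axes, log scale) in the 4 TG and 4 WT libraries, 1 point per library. WT 7, with 617 reads of Rpe65, stands near WT 3 for Dct and above it for Tyrp1, while TG 2, with 2697, stands below it for both.

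Of the other markers, Otx1, on the list of regulators, shared the high libraries of the enzymes. Others on that list differed from it. TG 6 was the lowest library for Pax6, Lhx2 and Kitl, and WT 7 was the lowest for Sox9. Otx2 was highest in TG 6, Sox9 in WT 3, and Tfeb, Tfe3 and Kitl in WT 7. Otx1, a homeobox gene active in the developing ciliary body and iris, had 24.8, 19.4, 133 and 17.6 normalized reads in TG 2, 5, 6 and 8, against 139, 16.6, 10.6 and 78.0 in WT 3, 4, 5 and 7. Wfdc1, on the list of ciliary body and iris markers, had 461, 398, 705 and 358 in the TG libraries in the same order, against 672, 331, 304 and 511 in the WT libraries. TG 6, WT 3 and WT 7 were the 3 highest libraries for both, as for Tyr, Tyrp1 and Dct. Over the whole list of ciliary body and iris markers, 8 of 9 were found, 5 had a positive and 3 a negative fold change, 0 passed, and the summed level was 16209, 19055, 13660 and 14419 in TG 2, 5, 6 and 8, against 15788, 14726, 14394 and 15509 in WT 3, 4, 5 and 7. The sum was thus lowest in TG 6, unlike Wfdc1, and TG 6 was also the lowest library for Mab21l1, Calb1 and Des of that list. Most of the sum came from Mab21l1, at 10014 to 15300 normalized reads over the libraries, so it says little of the other listed genes. The part of such cells in the result was not tested.

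**Figure D4:**
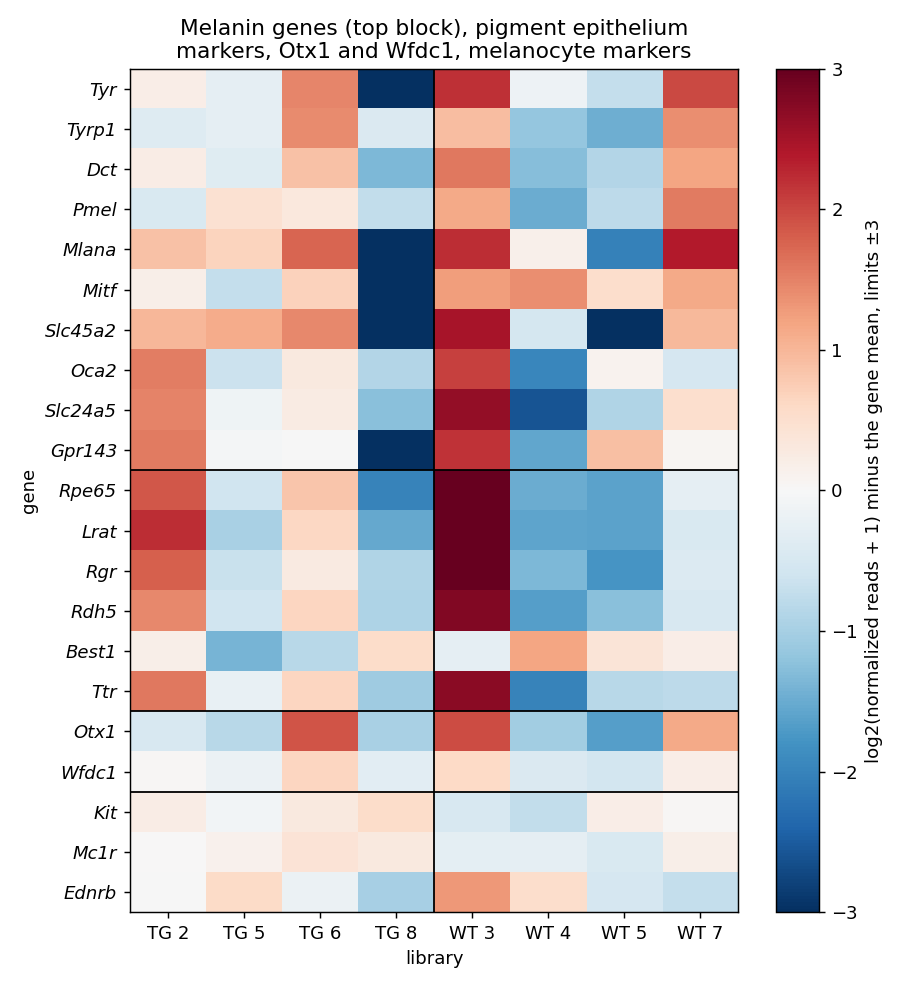
Log2(normalized reads + 1) minus each gene's mean over 8 libraries (colour, limits ±3) for the 10 melanin genes (top block), 6 pigment epithelium markers, Otx1 and Wfdc1, and 3 melanocyte markers (bottom block), with the 4 TG libraries left of the 4 WT libraries. WT 3 is high for all 10 melanin genes, TG 2 is high for Oca2, Slc24a5, Gpr143 and most pigment epithelium markers, and WT 7 is high for Tyr, Tyrp1, Dct, Pmel and Mlana but not for Rpe65.

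Markers of melanocytes from the neural crest followed the 10 genes only in part. Sox10, Pax3 and Ednrb were highest in WT 3, the library with the highest sum of the 10. Met and Mcoln3 were next to highest in WT 3. Tfap2b was lowest in WT 3, and Kit, Mc1r, Erbb3, Tfap2a, Cited1 and Trpm1 were next to lowest there. Sox10, a transcription factor of that lineage and of glia of the nerve sheath, had 24.8, 1.76, 4.94 and 3.90 normalized reads in TG 2, 5, 6 and 8, against 33.8 in WT 3 and 0 in the other 3 WT libraries. Pax3, another factor of that lineage, was at 0 in all 4 TG libraries, against 14.3 in WT 3, 3.90 in WT 7 and 0 in WT 4 and WT 5. The only libraries with reads of Pax3 were thus those with the highest and next highest sum of the 10 genes. The Pax3 value of WT 7 is close to the limit of 3 reads, 2.92 normalized reads there, so it is hardly set apart from 0. WT 7, with the highest Pmel and Mlana, had 0 reads of Sox10. Kit, the receptor for stem cell factor, had 234 to 363 in TG and 149 to 287 in WT, and Ednrb, the endothelin receptor, had 392, 586, 346 and 197 in TG 2, 5, 6 and 8, against 965, 567, 278 and 237 in WT 3, 4, 5 and 7. Mc1r, the melanocortin receptor, had 264 to 346 in TG and 188 to 296 in WT. Of the 12 genes on this list, all were found and 9 were tested, 8 with a positive and 1 with a negative log2 fold change, and 0 passed. Cited1 stood at 0.38, Kit at 0.49, Mc1r at 0.42 and Trpm1, also a channel of bipolar cells, at 0.21, and none passed.

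The machinery that builds and moves melanosomes is in large part shared with the lysosomes of other cells. Of 26 listed genes, all were tested, 12 had a positive and 14 a negative log2 fold change, 0 passed in either direction, and the median was -0.04. Their summed level was 36099 to 40843 in TG and 35781 to 38550 in WT. That sum was carried by abundant genes such as Ap3d1 (mean 9164) and Bloc1s1 (mean 7033), and single genes varied more. The highest library was 16.3-fold above the lowest for Gpnmb, 12.3-fold for Tpcn2, 11.3-fold for Mlph and 5.57-fold for Rab38.

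Rab38, a small GTPase that carries tyrosinase and Tyrp1 towards melanosomes, had 154, 160.3, 296 and 150.2 normalized reads in TG 2, 5, 6 and 8, against 53.2, 95.7, 84.5 and 142 in WT 3, 4, 5 and 7. Every TG library lay above every WT library, and limma put the log2 fold change at 1.03 with an SE of 0.37, which is short of the threshold (adjusted p = 0.92). Leaving out single libraries gave 0.79 to 1.26, and leaving out WT 3 and TG 6 together gave 0.56. WT 3, the highest library for most of the 10 melanin genes, was the lowest for Rab38.

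The groups did not overlap for 2 of the 26 genes, Rab38 and Bloc1s6, against 2.53% of all features tested. Bloc1s6, a subunit of a complex that sorts cargo to melanosomes, had 2354 to 2724 normalized reads in TG and 1971 to 2349 in WT, and it was named after its values were seen. Mlph, which links melanosomes to the motor myosin Va, had 53.2, 66.9, 143 and 46.8 in TG 2, 5, 6 and 8, against 26.6, 42.3, 12.7 and 47.8 in WT 3, 4, 5 and 7. Limma put the log2 fold change at 1.25 with an SE of 0.56, again short of the threshold (adjusted p = 0.92), and TG 8 lay below WT 7. Hps5, of a complex for lysosome-related organelles, stood at -0.39 and Mfsd12, which brings cysteine into melanosomes, at -0.47, and neither passed.

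Relatives of Mitf and other regulators of the pigment epithelium gave 0 calls among 9 tested of 10 listed, 5 with a positive and 4 with a negative log2 fold change, Mitf being 1 of the 4. Tfeb, a relative of Mitf that drives lysosomal genes, stood at -0.13, Sox9 at 0.16 and Kitl, the ligand of Kit, at -1.10, and none passed. Tfec, a relative of Mitf found in mouse pigment epithelium, had 0 to 7.09 normalized reads in TG and 0 to 5.52 in WT and was too low to be tested.

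The genes whose levels over the 8 libraries were most like the mean of the 10 melanin genes were sought among 12276 features with a symbol and a mean of at least 50. The 8 most alike were Ppfibp2, Gsta3, Krt8, Insl6, Lactb2, Abi3, Tspan10 and Iqgap2, with Pearson's r from 0.94 to 0.98 and Spearman's rank correlation from 0.81 to 0.98 over 8 libraries, chosen for that likeness and so given with no test. Gsta3, a glutathione transferase gene, had 94.0, 72.2, 133 and 19.5 normalized reads in TG 2, 5, 6 and 8, against 337, 64.4, 48.6 and 139 in WT 3, 4, 5 and 7. Krt8, an epithelial keratin gene on the pigment epithelium list, had 186, 105, 130 and 3.90 in the TG libraries in the same order, against 575, 27.6, 20.1 and 86.8 in the WT libraries. Tspan10, a tetraspanin gene, had 182, 38.7, 72.9 and 2.93 in the TG libraries, against 242, 21.2, 28.5 and 66.3 in the WT libraries. All 3 were highest in WT 3 and lowest in TG 8. The 8 values share library preparation, depth and tissue composition.

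Material of other tissues also differed between the libraries. The summed lens genes were 279 to 22221 normalized reads in TG and 160 to 27270 in WT, highest in WT 3 and TG 6, while WT 7, high in Tyrp1 and Dct, stood at 217. The myelin gene Mbp was at 10093 in WT 3, against 224 to 491 in the other 7 libraries. Stromal genes of choroid and sclera summed to 1940 to 4012 in TG and 1953.6 to 3287 in WT, with TG 2 highest. Macrophage and microglia genes summed to 7105 to 22386 in TG and 7083 to 11389 in WT. The part of these in the levels of the melanin genes was not tested. In the fits without WT 3 and TG 6, 0 of the 10 passed. The same held in the fit to all 8 libraries, so those fits cannot bear on that part.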

How the data were processed

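RNA from 8 detached retinas (4 TG, 4 WT) was sequenced, and the authors deposited 1 table on mm10 (GRCm38). The deposited values are a normalized signal: read counts per feature, each library divided by a size factor. STAR 2.4.0, DESeq2, SAMtools, Picard and FastQC are listed in the submitters' processing notes. The sources used here do not name the counting tool, its strand setting or the annotation. Each column was whole multiples of its smallest positive value (100% of values within 0.01), so reads were recovered. From 78.1% to 79.8% of values of 1 to 50 reads were even, so the number of independent fragments may be lower than the number of reads. No pair of libraries was a near-copy (lowest chi-square per feature 46.1). Unmapped sample columns numbered 0.

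Groups were compared with limma 3.58.1, run in R 4.3.3, on log2(value + 1) with a trended prior variance. Features needed a mean of 10 or more, with Benjamini-Hochberg adjustment over all of them and a threshold of 0.05. On this scale the fold change of a low gene depends on the pseudocount, and a library at 0 can make it larger than the count-based one, as for Mitf, Tyr and Mlana. edgeR 4.0.16 (quasi-likelihood) and DESeq2 1.42.0 on recovered reads, other scalings, pseudocounts and filters, terms for sex or for eye, a fit to males alone, variance models, and leaving out each library were alternatives. Errors beside means are SD, those beside fold changes SE, and intervals are 95%. Where a gene had 0 reads, 3 reads in that library was taken as its upper limit. Such limits cover counting error only, and would be higher if reads of the same fragment were counted separately. On simulated counts for TG against WT over 19798 features, limma recovered 40% of the 100 that differed 2-fold and 78% of the 100 that differed 4-fold, all with means of 50 or more, and 9 unchanged features were called. Only 6 of the 10 melanin genes had such a mean, and the SE of all 10 was wider than the median feature's. These shares may therefore not hold for the melanin genes.

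The members and lists were chosen with earlier results of these data known. The genes named were the 10 members, up to 4 per list with the smallest p (a part of which is printed), set markers of pigment epithelium and melanocytes, and the 8 features most like the members. Otx1, Wfdc1, Mbp, Tfec, Bloc1s6, Gpnmb, Tpcn2, Ap3d1, Bloc1s1, Mab21l1, Calb1 and Des fall outside that rule or were singled out after their values were seen. The same holds for Tfap2a, Tfap2b, Erbb3, Met, Mcoln3, Cdh1, Krt18, Sulf1, Cldn19, Pax6, Lhx2, Otx2 and Tfe3. Lists of blood cells, retinal neurons and glia served to check the tissue, and 0 of their genes passed.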

Additional observations from a re-analysis of the deposited data

Results flagged for a closer look

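Within groups of 4 libraries, a value was set apart where its gap to the nearest other library was larger, as a share of the group's range, than Dixon's 95% critical value. Of 54 groups of 4 examined, 11 met this. The nominal rate of 1 in 20 holds for independent groups of normally distributed values. The values here were untransformed reads, and all groups came from the same 8 libraries. The count is therefore not read against that rate. Among the melanin genes it was met once, by Tyrp1 in TG 6 (872 normalized reads, against 242 to 271 in the other TG libraries).

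Pigment epithelium markers met it in WT 3, where Rpe65 stood at 7153, Lrat at 3480, Rgr at 11674, Rdh5 at 6921 and Ttr at 67791 normalized reads. The highest of the other WT libraries held 617, 255, 1056, 724 and 6040. Markers of other tissues did so too. Mbp was 10093 and the lens gene Cryaa 10773 in WT 3, against at most 356 and 348 in the other WT libraries. Sox10 was 33.8 in WT 3 against 0 in the other WT libraries, and 24.8 in TG 2 against 1.76 to 4.94 in the other TG libraries. Otx1 was 133 in TG 6 against 17.6 to 24.8 in the other TG libraries. These values are given with no explanation.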

How the results depend on the processing

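No setting brought any of the 10 melanin genes past the threshold, and the lowest adjusted p of any of them under any setting was 0.64, for Mitf. Of 226 values of these genes under alternatives, 189 kept their sign and 37 turned; the cause was not tested. The sign of Tyr and Mitf was negative under every setting run. With sex as a term Tyrp1 was -0.17. With eye as a term Tyrp1 was -0.18, Slc45a2 -0.32, Oca2 -0.024 and Slc24a5 -0.12. With males only Dct was 0.11, Pmel 0.37, Mlana 0.66, Gpr143 0.25, Tfeb 0.20 and Kitl 0.91. With array weights Pmel was 0.10. With edgeR Tyrp1 was -0.11, Slc45a2 -0.25, Oca2 -0.18 and Slc24a5 -0.61, and with DESeq2 they were -0.10, -0.27, -0.21 and -0.65. Without WT 3 and TG 6 together Kitl was 0.055. Leaving out 1 library gave -0.31 to 0.64 for Tyrp1, -0.79 to 0.17 for Dct, -0.75 to 0.26 for Pmel, -2.25 to 0.42 for Mlana, -0.89 to 1.26 for Slc45a2, -0.47 to 0.86 for Oca2, -1.44 to 0.11 for Gpr143, -0.65 to 1.09 for Slc24a5, -0.24 to 0.049 for Tfeb and -1.79 to 0.18 for Kitl. The median over the 10 genes ranged from -0.77 to 0.21 without 1 library and was 0.31 with males only. A minimum mean of 50 left 6 of the 10. Over all features, limma called 1 higher and 1 lower, DESeq2 9 and 7. Ranking libraries by the mean of centred log2 values in place of the sum gave the same highest 3. No paired analysis was possible because the groups share only replicate number 5.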
